A study of Mus musculus with 12 samples.

Results

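The genes described here are 9 enzymes of mouse liver that release nitrogen from amino acids or pass it into urea: Cps1, Otc, Ass1, Asl, Arg1 and Nags of the urea cycle, the glutaminase Gls2, the histidine ammonia-lyase Hal and the serine dehydratase Sds. They were chosen by name, and all 9 are among the 24062 genes of the count tables and among the 12481 genes that passed the filter on low counts. The liver RNA came from female C57BL/6J mice that arrived at 6 weeks of age, acclimated for 2 weeks and were moved from chow to the control diet 3 days before the experiment. For the next 10 days 1 group stayed on the control diet and the other ate a matched diet that delivered BIBB-515 at 55 mg/kg body weight. BIBB-515 is an inhibitor of lanosterol synthase, an enzyme of cholesterol synthesis encoded by Lss. The study used 11 mice per diet, and sequencing libraries of 6 control mice, numbered 1 to 6, and 6 BIBB-515 mice, numbered 6 to 11, were analysed. All mice were of 1 inbred strain and 1 sex, and each library was made from a piece of whole liver.

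The urea cycle turns ammonia into urea and in mammals runs in full almost solely in hepatocytes, most strongly in those around the portal vein. Ammonia and bicarbonate enter in the mitochondria as carbamoyl phosphate, which is joined to ornithine, and the remaining steps in the cytosol take up the nitrogen of aspartate and split arginine into urea and ornithine. Glutaminase, histidase and serine dehydratase release ammonia from single amino acids in the same periportal cells, while pericentral hepatocytes capture what is left as glutamine. The comparison asks whether the RNA of these genes differed in liver after the drug diet, which the study used to inhibit Lss and follow cholesterol and glucose metabolism.

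The reads counted on genes came to 22764819 to 27914647 per control mouse and 24223939 to 31058370 per BIBB-515 mouse. Levels are given as CPM, counts scaled to 1000000 reads after TMM adjustment of library sizes, and differences as log2 fold changes of BIBB-515 minus control from edgeR's quasi-likelihood test with Benjamini-Hochberg adjustment over all tested genes (FDR). The labels do not state how each mouse's RNA was batched, and p-values set the difference between the diets against the spread between these mice. The mice were housed several to a cage, and the labels do not name the cages. Every test here therefore treats each mouse as independent, and whether cage mates were more alike was not tested. Pairs of libraries within a diet were farther apart than counting noise allows, with a chi-square per degree of freedom of at least 12.7. The library of control mouse 4 stood apart in coverage: of the reads on exons, it placed the highest share on the last exons, those toward the 3′ end, for 8 of the 9 members. For the last 12 of the 38 exons of Cps1 that share was 71.2% in control mouse 4 and between 52.4% and 61% in the other mice. Results for members are therefore also given without it where they rest on it.

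Of the 9 members, Hal was higher with BIBB-515 at an FDR under 0.05 and the other 8 did not pass. The share is 11.1%, against 13.7% of all tested genes called in either direction and 20.6% of the 2153 genes whose average log2 CPM is 6 or more, the range in which 8 of the members lie. In the direction of higher levels the 1 member compares with 7.18% of all tested genes, and in that of lower levels 0 members compare with 6.48% (edgeR; DESeq2 called 1 member lower, Otc, and limma-voom 0). At an unadjusted p under 0.05 by edgeR there were 4 members (Hal, Asl, Nags and Otc), against 29.7% of all tested genes. The members had a median log2 fold change of -0.086, against -0.014 over all tested genes. Hal and Otc showed no overlap between the mice of the 2 diets, as did 7.07% of all tested genes. Without control mouse 4 the count of members called was 1 as well, and it was 2 without control mouse 2 or control mouse 5.

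**Figure D1:**
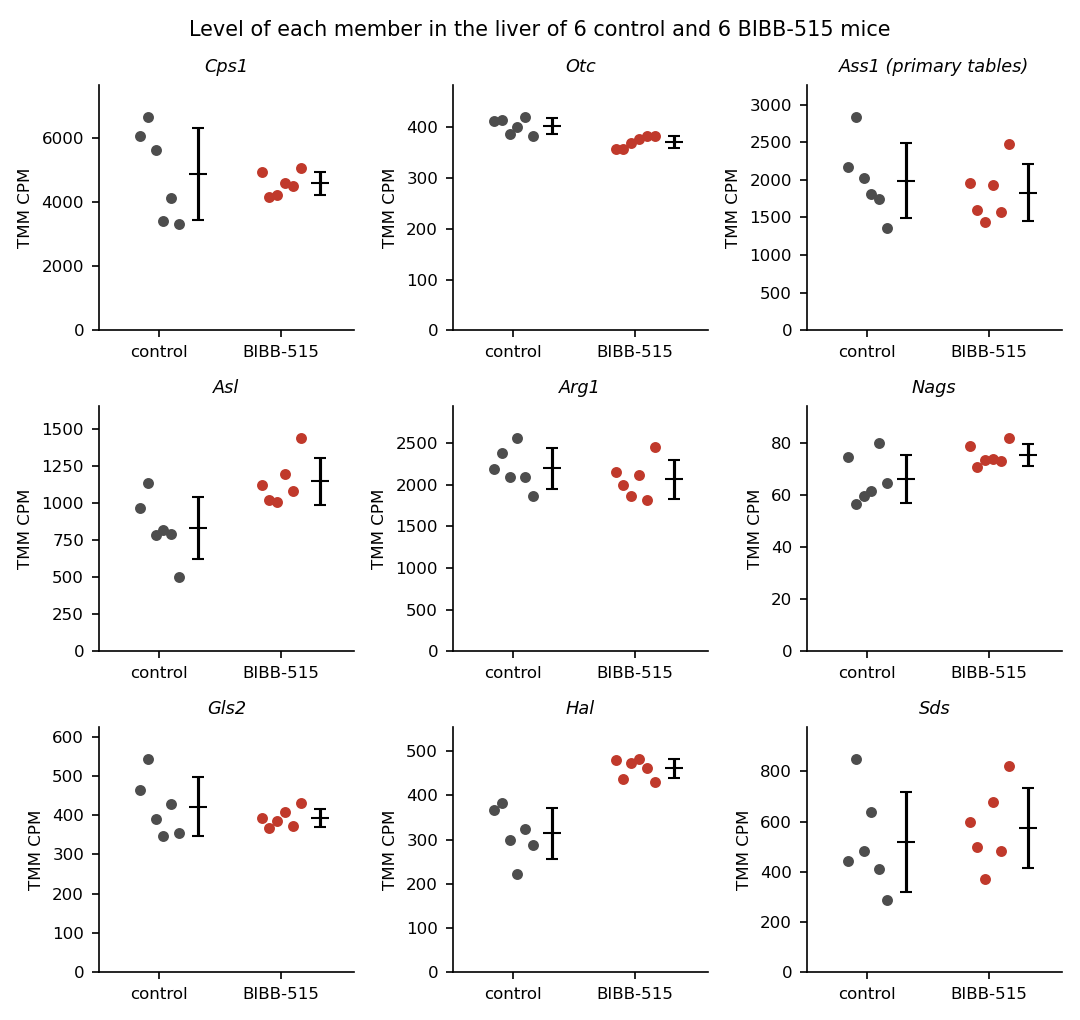
TMM CPM of each member in each mouse, with control mice in grey, BIBB-515 mice in red, in label order from left to right, and the mean and SD of the 6 mice beside each group in black; Ass1 is drawn from the tables of primary alignments and every axis starts at 0. All 6 BIBB-515 mice lie above all 6 control mice for Hal, and the control values of Cps1 lie in a higher and a lower set of 3 on either side of the BIBB-515 values.

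Hal encodes histidine ammonia-lyase, which removes ammonia from histidine and makes urocanate, the first step of histidine breakdown. It lies on chromosome 10 from 93488768 to 93516743 (mm10, plus strand) and has 20 exons. Among the control mice its level had a lowest value of 222 CPM, a median of 313 and a highest of 383. Among the BIBB-515 mice the lowest was 431 CPM, the median 467 and the highest 483. Every BIBB-515 mouse was thus above every control mouse, and control mouse 4, with the shifted coverage, was the lowest of all. The means were 314 ± 58.3 CPM and 461 ± 22.4 CPM (SD, n = 6 each), 1.47-fold higher with BIBB-515. The log2 fold change was 0.55 (standard error 0.11, 95% interval 0.34 to 0.77, FDR 0.0045 by edgeR). A two-sided exact permutation test gave p = 0.00216, the smallest that 6 against 6 allows. Without control mouse 4 the log2 fold change was 0.48 with an FDR of 0.00258 by edgeR.

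The promoter of Hal is shown because it is the member that passed the test and its first exon in the count tables opens inside this window. RefSeq gives 300 bases for it on chr10:93488518-93488817 (GRCm38.p6, the build of mm10, plus strand), of which 250 lie before the start of the gene and 50 after it. Short motifs were searched on both strands, with overlaps between them allowed. The letters TATAAA stood for a TATA box and the letters CCAAT for the box of that name. A cAMP response element was searched as TGACGTCA, a palindrome bound by C/EBP factors as TTGCGCAA, and the site of a glucocorticoid receptor monomer as AGAACA. Capitals mark the matches.
Hal: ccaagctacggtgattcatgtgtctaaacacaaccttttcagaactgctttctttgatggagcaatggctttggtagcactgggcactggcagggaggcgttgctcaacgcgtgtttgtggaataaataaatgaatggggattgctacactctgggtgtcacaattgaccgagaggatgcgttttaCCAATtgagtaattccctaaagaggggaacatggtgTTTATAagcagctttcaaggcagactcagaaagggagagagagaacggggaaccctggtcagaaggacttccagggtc
The window holds CCAAT from 64 bases and the TATA box, read on the other strand, from 28 bases before the start. CCAAT occurs in 37.4% and TATAAA in 13.6% of 32851 promoters of the same length. The other 3 motifs are not in these 300 bases, and they occur in 1.79% (TGACGTCA), 0.183% (TTGCGCAA) and 19% (AGAACA) of promoters. Of the 9 members, 4 have an entry in this promoter table, and among those 4 only Hal matched any of the motifs.

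The higher level of Hal ran along the whole transcript. All 20 exons had a higher mean in the BIBB-515 mice, by log2 ratios between 0.51 (exon 7) and 0.66 (exon 1), and the groups did not overlap in 11 of them. Those were exons 10 to 20, toward the 3′ end, while the groups overlapped on each of exons 1 to 9. Exon 20, with the most reads, and exon 7, with the fewest, both had a log2 ratio of 0.51. The exon counts hold the same reads as the gene counts and are no further evidence.

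**Figure D2:**
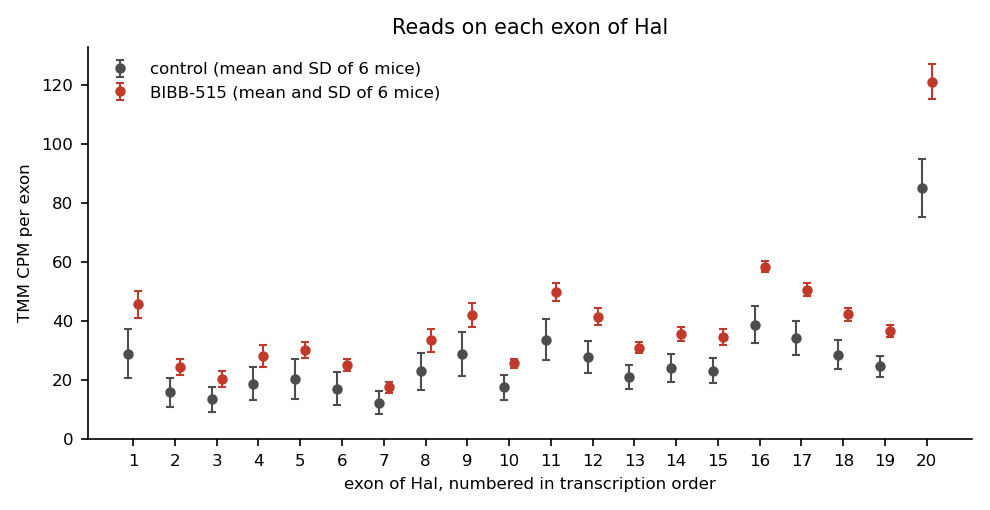
TMM CPM on each of the 20 exons of Hal in transcription order, as mean and SD of 6 control mice (grey) and 6 BIBB-515 mice (red), from 0. The BIBB-515 mean is higher on every exon, and the log2 ratio stays between 0.51 and 0.66.

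Nags encodes N-acetylglutamate synthase, which makes the activator that carbamoyl phosphate synthetase needs. It lies on chromosome 11 from 102145513 to 102149528. Its level ran from 56.6 CPM through a median of 63.1 to 80 among the control mice and from 70.9 through 73.8 to 82.2 among the BIBB-515 mice. The groups overlapped: 4 control mice lay below every BIBB-515 mouse, and control mice 1 and 5 lay within their range. Its log2 fold change of 0.19 (standard error 0.08, 95% interval 0.026 to 0.35) had an FDR of 0.142 by edgeR, and the exact permutation test gave p = 0.0498. Without control mouse 5, the highest control, it was 0.26 with an FDR of 0.0345 by edgeR, and this was the 1 pass among the 12 fits that left out 1 mouse. Without control mouse 2 it was 0.15 (FDR 0.24 by edgeR), and without BIBB-515 mouse 11 it was 0.16 (FDR 0.254 by edgeR).

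Cps1 encodes carbamoyl phosphate synthetase 1, the entry step of the cycle and among the most abundant proteins of liver mitochondria. It lies on chromosome 1 from 67123027 to 67231267 and has 38 exons. The control mice were spread widely, at 6050.4 CPM (mouse 1), 6665 (mouse 2), 5622 (mouse 3), 3424 (mouse 4), 4121 (mouse 5) and 3308 (mouse 6). The BIBB-515 mice lay between 4153 and 5075 CPM with a median of 4552. So 3 control mice were above and 3 below the whole range of the drug group, and the coefficient of variation was 29.5% in the control mice and 8% in the BIBB-515 mice. With a standard error of 0.16, the log2 fold change was -0.086 (95% interval -0.41 to 0.23, FDR 0.769 by edgeR), and it changed sign to 0.025 without control mouse 2.

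Otc encodes ornithine transcarbamylase, which joins carbamoyl phosphate to ornithine, and lies on chromosome X from 10252359 to 10321024. Its values were the tightest of all members, from 381 CPM through a median of 406 to 420 in the control mice and from 356 through 372 to 381 in the BIBB-515 mice. All 6 BIBB-515 mice lay below all 6 control mice, but the lowest control and the highest BIBB-515 value were equal when rounded to 381 CPM, and the groups overlapped in the tables of primary alignments. The mean went from 402 ± 16.1 to 370 ± 11.2 CPM (SD, n = 6 each), a ratio of 0.92. Its log2 fold change of -0.12 (standard error 0.06, 95% interval -0.23 to -0.011) had an unadjusted p of 0.0473 and an FDR of 0.162 by edgeR, and the exact permutation test gave p = 0.00216. The tests thus fell on different sides: DESeq2 gave an FDR of 0.0286 for the same log2 fold change, and with library totals in place of TMM it was -0.067 with an FDR of 0.431 by edgeR.

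Ass1 encodes argininosuccinate synthase, which brings in the aspartate nitrogen, and lies on chromosome 2 from 31470270 to 31520670. In the gene tables it had between 12 and 43 reads per mouse. The annotation behind the tables places a second gene, Gm5424, on the same strand over 1552 of the 1631 exon bases of Ass1 (95.2%), and reads that overlap 2 genes were left out of the gene tables. The tables of primary alignments, which keep such reads for both genes, gave Ass1 between 35009 and 81227 reads per mouse. The gene tables thus held 0.0439% of its reads. For the other 8 members the tables of primary alignments held at most 1.74% more reads in any mouse. The highest of these were Gls2 and Sds, which share 95 and 13 exon bases with Spryd4 and Plbd2 on the opposite strand.

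**Figure D3:**
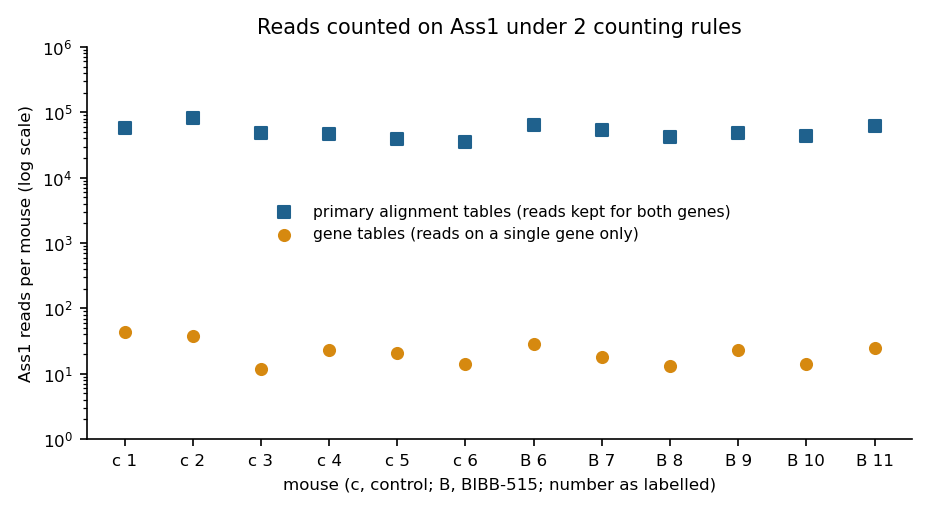
Reads counted on Ass1 in each of the 12 mice, on a log scale, in the gene tables (circles) and in the tables of primary alignments (squares). Between 12 and 43 reads per mouse remain under the first rule, against 35009 to 81227 under the second.

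In the tables of primary alignments Ass1 ran from 1355 CPM through a median of 1918 to 2840.3 in the control mice and from 1435 through 1764 to 2471 in the BIBB-515 mice. Both groups overlapped over most of their range, with control mouse 2 highest and control mouse 6 lowest of all 12. The log2 fold change there was -0.12 (standard error 0.17, 95% interval -0.45 to 0.20, FDR 0.664 by edgeR), and all 16 exons had a slightly lower mean with BIBB-515, by log2 ratios of -0.20 to -0.057. The fold change was -0.24 without BIBB-515 mouse 11 and -0.0051 without control mouse 2. The value from the few reads of the gene tables was -0.47 (standard error 0.31, FDR 0.326 by edgeR). Reads of Ass1 and Gm5424 cannot be told apart in the tables of primary alignments.

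Asl encodes argininosuccinate lyase, which splits argininosuccinate into arginine and fumarate, and lies on chromosome 5 from 130011503 to 130024331 (minus strand). Its level ran from 500 CPM through a median of 803 to 1132 in the control mice and from 1005 through 1101 to 1440.2 in the BIBB-515 mice. The 6 drug-fed mice all exceeded the mean of the controls, 5 control mice were below every one of them, and control mouse 2 alone made the groups overlap. The means were 831 ± 211 and 1144 ± 161 CPM (SD, n = 6 each), a ratio of 1.38. A log2 fold change of 0.46 (standard error 0.16, 95% interval 0.16 to 0.77) had an FDR of 0.0616 by edgeR, just over the threshold, and the exact permutation test gave p = 0.0152. Without control mouse 2 it was 0.57 with an FDR of 0.0195 by edgeR, and this was the 1 pass among the 12 fits that left out 1 mouse. Without BIBB-515 mouse 11 it was 0.39 with an FDR of 0.135 by edgeR. With all mice DESeq2 gave an FDR of 0.0224 and limma-voom gave 0.0511. Of its 17 exons, 16 had a higher mean with BIBB-515.

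Arg1 encodes arginase 1, which releases urea, and lies on chromosome 10 from 24915207 to 24927470 (minus strand). Its level ran from 1867 CPM through a median of 2141 to 2567 in the control mice and from 1815 through 2061 to 2457 in the BIBB-515 mice, and the ranges nearly coincided. The log2 fold change was -0.087 (standard error 0.10, 95% interval -0.28 to 0.10, FDR 0.592 by edgeR), and it was -0.14 without BIBB-515 mouse 11 and -0.028 without control mouse 4. Its paralog Arg2, the mitochondrial arginase of other tissues, stayed under the filter at no more than 0.683 CPM in any mouse and was not tested.

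Gls2 encodes the liver type of glutaminase, which frees ammonia from glutamine beside the cycle, and lies on chromosome 10 from 128194635 to 128210004. It ran from 347 CPM through a median of 409 to 544 in the control mice and from 368 through 389 to 430 in the BIBB-515 mice, all 6 of which lay within the control range. On the log2 scale the difference was -0.10 (standard error 0.10, 95% interval -0.30 to 0.099, FDR 0.547 by edgeR). It was -0.14 without control mouse 4 and -0.016 without control mouse 2.

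Sds encodes serine dehydratase, which turns serine into pyruvate and ammonia, and lies on chromosome 5 from 120476547 to 120483905. It ran from 289 CPM through a median of 464 to 851 in the control mice and from 371 through 550 to 821 in the BIBB-515 mice. Control mouse 2 and BIBB-515 mouse 11 stood highest in their groups, and the coefficients of variation of 38% and 27.7% were the largest among the members in each diet once Ass1 was taken from the tables of primary alignments. On the log2 scale the difference was 0.15 (standard error 0.23, 95% interval -0.31 to 0.60, FDR 0.718 by edgeR), and it ranged from 0.017 without BIBB-515 mouse 11 to 0.34 without control mouse 2. Its paralog Sdsl was at 18.6 ± 1.44 and 16.1 ± 2.27 CPM (SD, n = 6 each), with an FDR of 0.128 by edgeR.

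**Figure D4:**
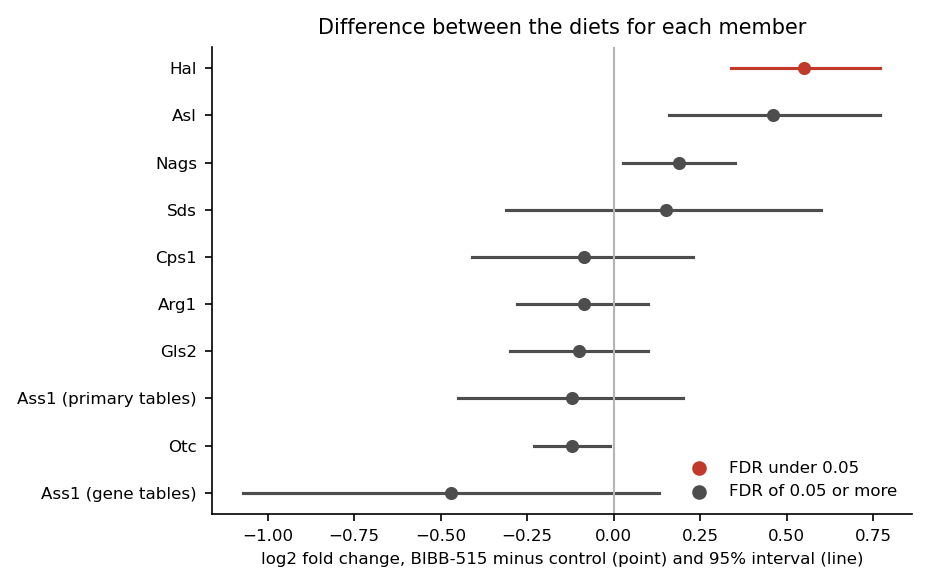
Log2 fold change of BIBB-515 minus control for each member (point) with its 95% interval (line), in red where the FDR is under 0.05; Ass1 is drawn from both kinds of table. Hal alone is red, Asl and Nags have intervals above 0, that of Otc lies just under 0, and all others span 0.

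Levels were compared between members as CPM per kb of exon, taken from the tables of primary alignments so that Ass1 could be placed. In the control mice Arg1 was highest at 1433 ± 164 CPM per kb, followed by Ass1 at 1220.4 ± 307, Cps1 at 843 ± 250, Asl at 524 ± 134 and Sds at 434 ± 166 (SD, n = 6 each). Otc at 171 ± 6.86 and Gls2 at 165 ± 29.1 did not differ beyond their spread, since Otc was the higher of the pair in 4 of 6 mice. Hal followed at 110 ± 20.4 and Nags was lowest at 30.2 ± 4.08. The other neighbours in this order kept it in every control mouse except Arg1 over Ass1 and Asl over Sds, each in 5 of 6 mice. In the BIBB-515 mice the order was the same apart from Hal, which at 162 ± 7.89 CPM per kb stood beside Otc (158 ± 5.18) and Gls2 (155 ± 9.78) and above Otc in 4 of 6 mice. Cps1 (798 ± 66.8) and Asl (725 ± 104) also came closer to each other, with Cps1 higher in 5 of 6 mice.

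Together the 9 members took between 0.678% and 1.23% of all gene counts in the control mice against 0.891% to 1.1% with BIBB-515. The means of 0.945% ± 0.2 and 0.984% ± 0.0793 (SD, n = 6 each) differed by less than the spread between mice. With the reads of Ass1 kept, the shares were 1.11% ± 0.243 and 1.13% ± 0.111. Control mouse 2 had the highest and control mouse 6 the lowest share of all 12 mice.

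The members of a mouse were read from the same library. Over the 36 pairs of members the median Pearson r of log2 CPM was 0.517 in the control mice (range -0.547 to 0.948) and 0.809 in the BIBB-515 mice (range -0.351 to 0.964). None of the 72 values passed an adjusted p of 0.05 in exact permutation tests, where the lowest adjusted value was 0.1 for Pearson's r and 0.171 for Spearman's rho. With the unadjusted exact permutation p under 0.05 there were 8 pairs in the control mice and 17 in the BIBB-515 mice by Pearson's r. Some of these rested on few mice: with 2 of the 6 left out, r of Ass1 and Sds in the control mice went from 0.848 to -0.184. Others held, such as Gls2 and Hal in the control mice, which went from 0.896 to 0.972. Pairs of other genes were not examined, so whether the members vary together more than other genes do was not tested. Nor was the difference between the diets in these correlations.

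The genes whose pattern over the 12 mice was most like that of Hal, by the root mean square difference of centred log2 CPM among 8507 genes whose average log2 CPM is 3 or more, were Aldh1b1 (0.085), Aldh4a1 (0.0952) and Abhd15 (0.102), against a median of 0.37 over all of them. Aldh1b1 and Aldh4a1 encode mitochondrial aldehyde dehydrogenases, the latter of proline and hydroxyproline breakdown. Since likeness was measured over both diets, their log2 fold changes of 0.53, 0.59 and 0.55 are part of that likeness and no separate evidence.

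Around the members, 18 genes of ammonia handling and of the transporters and transaminases that feed the cycle were tested, and 3 rose, 2 fell and 13 did not pass, with a median log2 fold change of 0.13. The share called was 27.8%, against 13.7% of all tested genes and 20.6% of those with an average log2 CPM of 6 or more. Levels in the lists are means ± SD of 6 mice per diet, with edgeR's log2 fold change and FDR in brackets. Aldh4a1, which makes glutamate from proline, rose from 422 ± 93 to 634 ± 35.8 CPM (log2 fold change 0.59, FDR 0.00711). Gpt, an alanine transaminase, rose from 283 ± 72.1 to 400 ± 34.5 CPM (0.50, FDR 0.0281), and Car5a, the mitochondrial carbonic anhydrase that supplies bicarbonate to Cps1, from 39.7 ± 6.45 to 50 ± 3.11 CPM (0.33, FDR 0.0322). Glul, the glutamine synthetase of pericentral hepatocytes, fell from 1125 ± 126 to 917 ± 52.6 CPM (-0.29, FDR 0.0272) with no overlap between the groups, and it also stands in the pericentral list below. The mitochondrial carriers of ornithine, aspartate and glutamate, Slc25a15, Slc25a13 and Slc25a22, had log2 fold changes of -0.13, 0.13 and -0.16 and did not pass. The count of 5 depended on single mice: it was 2 without control mouse 4 or BIBB-515 mouse 7, 8 or 9, and 3 without control mouse 6 or BIBB-515 mouse 6, 10 or 11. Aldh4a1 passed in all 12 of the fits that left out 1 mouse, Gpt and Car5a each in 8 and Glul in 6. Control mouse 4 was the lowest control for Aldh4a1 and Car5a. Without it the log2 fold change was 0.50 for Aldh4a1 and 0.27 for Car5a.

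Histidine breakdown continues from Hal through Uroc1, Amdhd1 and Ftcd, which were singled out after their values were seen. Uroc1, the urocanate hydratase, was at 589 ± 40.8 CPM in the control and 646 ± 34.8 CPM in the BIBB-515 mice (SD, n = 6 each; log2 fold change 0.13, FDR 0.200 by edgeR). Amdhd1, which opens the imidazolone ring, was at 200 ± 21.5 and 221 ± 9.64 CPM (0.15, FDR 0.200 by edgeR). Ftcd, the last enzyme of the chain, rose from 499 ± 40.3 to 580 ± 20.3 CPM (0.22, FDR 0.0462 by edgeR) with no overlap between the groups. The Ftcd call was lost with no filter on low counts (FDR 0.0663) and held in 2 of the 12 fits that left out 1 mouse. All 3 differences were smaller than that of Hal; whether they differ from it was not tested.

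Among 30 genes of amino acid breakdown other than the members, 4 rose, 1 fell and 25 did not pass, with a median log2 fold change of 0.043. Those called make up 16.7%, near the 13.7% of all tested genes and below the 20.6% of those with an average log2 CPM of 6 or more. Gldc, the glycine decarboxylase of the glycine cleavage system, rose from 173 ± 29.9 to 295 ± 37.2 CPM (0.77, FDR 0.000615), with every BIBB-515 mouse above every control mouse. Cth, which makes cysteine from cystathionine, rose from 194 ± 60.1 to 290 ± 26.9 CPM (0.58, FDR 0.0286), and Gnmt, the glycine N-methyltransferase, from 1652 ± 323 to 2246 ± 335 CPM (0.44, FDR 0.0403). Cbs, which makes cystathionine, fell from 584 ± 100 to 427 ± 38.4 CPM (-0.45, FDR 0.0128) with no overlap. The count of 5 was 2 without control mouse 6 or BIBB-515 mouse 6 or 11, and 3 without control mouse 5 or BIBB-515 mouse 7, 9 or 10. Gldc and Cbs passed in all 12 of the fits that left out 1 mouse, Cth in 9 and Gnmt in 4.

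Of 19 amino acid transporters, 2 fell and 17 did not pass in edgeR, with a median of -0.025. This share of 10.5% is below the 13.7% of all tested genes. None rose in edgeR or limma-voom, against 1 in DESeq2 and 1 at an unadjusted p under 0.05 by edgeR. Slc38a2, which carries small neutral amino acids, fell from 226 ± 66.3 to 157 ± 22.7 CPM (-0.53, FDR 0.0384), and Slc1a2, a glutamate transporter of pericentral hepatocytes, from 162 ± 25.9 to 128 ± 5.38 CPM (-0.34, FDR 0.0265). Like Glul, Slc1a2 is counted again in the pericentral list below. The count ran from 0, without control mouse 1 or BIBB-515 mouse 8, 9 or 10, through 1 without control mouse 4 or 5 or BIBB-515 mouse 6 or 7, to 4 without control mouse 6 and 5 without control mouse 2. Slc38a2 passed in 5 and Slc1a2 in 6 of the 12 fits that left out 1 mouse.

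The 9 members were set beside other genes of their zone. Of 19 other periportal genes 5 rose, 8 fell and 6 did not pass, with a median of -0.34. Calls thus made up 68.4% of this list, against 13.7% of all tested genes and 20.6% of those with an average log2 CPM of 6 or more. Cyp2f2, a cytochrome P450 used as a periportal marker, rose from 637 ± 122 to 1268 ± 110 CPM (0.99, FDR 6.76e-05), and Hsd17b6, a hydroxysteroid dehydrogenase, from 235 ± 83.6 to 416 ± 83.2 CPM (0.82, FDR 0.0220). Serpina12 fell from 56.4 ± 26.8 to 18.5 ± 4.23 CPM (-1.61, FDR 0.00204) and Apoa4, an apolipoprotein, from 1255 ± 352 to 566 ± 115 CPM (-1.15, FDR 0.00161). Of 25 pericentral genes 2 rose, 6 fell and 17 did not pass, with a median of 0.021. Their share called was 32%, against the same 13.7% and 20.6%. Cyp1a2 rose from 251 ± 30.5 to 417 ± 55.1 CPM (0.73, FDR 0.000324) and Rnf43, a Wnt pathway ubiquitin ligase, from 21.7 ± 3.89 to 31.5 ± 4.57 CPM (0.54, FDR 0.00954). Slc13a3 fell by 0.63 (FDR 0.0442) and Lgr5, a Wnt target, by 0.51 (FDR 0.0322) on the log2 scale, calls that held in 2 and 6 of the 12 fits that left out 1 mouse. Neither zone moved in 1 direction, and the pericentral count was 4 without BIBB-515 mouse 6 and 5 without control mouse 1 or BIBB-515 mouse 7, 9 or 10.

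**Figure D5:**
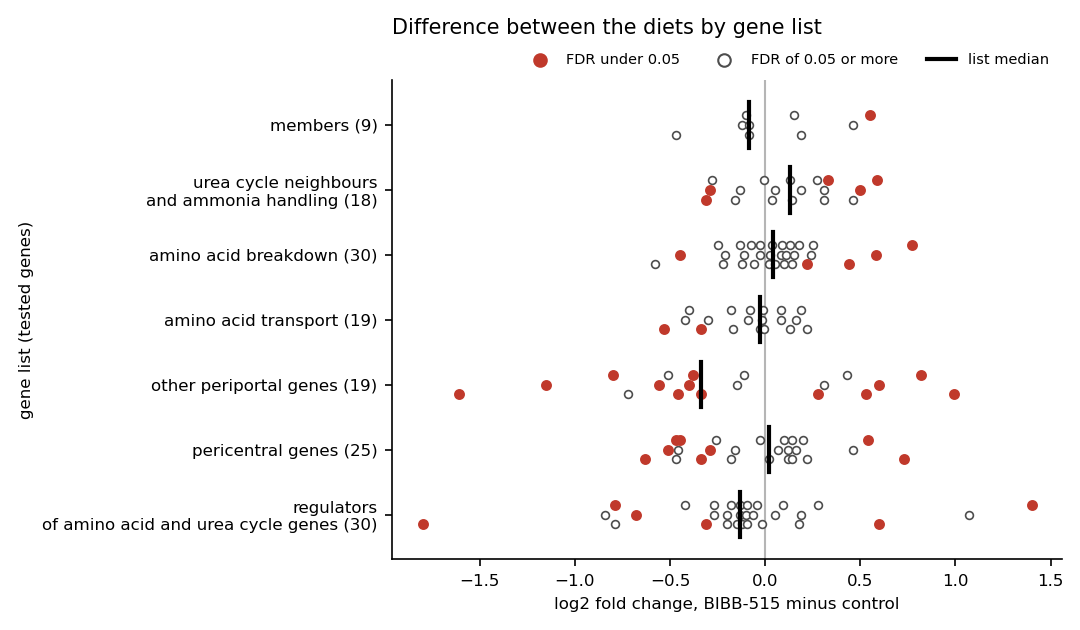
Log2 fold change of BIBB-515 minus control for every tested gene of the 7 lists, in red where the FDR is under 0.05, with the median of each list as a black bar and the number of tested genes in brackets. The members lie between -0.47 and 0.55 with a single red point, where -0.47 is Ass1 from its few reads in the gene tables (-0.12 in the tables of primary alignments), and the other periportal genes hold 13 red points on both sides of 0.

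Of 30 tested genes that encode hormone receptors, transcription factors and other regulators tied to these enzymes, 2 rose, 4 fell and 24 did not pass, with a median of -0.13. In this list 20% were called, against 13.7% of all tested genes. Trib3, a pseudokinase of the amino acid stress response, rose from 5.54 ± 1.4 to 14.7 ± 1.3 CPM (1.40, FDR 1.25e-05) with no overlap, whereas Atf4 (-0.015) and Asns (0.050), also of that response, did not pass (FDR 0.918 and 0.947 by edgeR). Fgf21, a fasting hormone of the liver, had a log2 fold change of -1.80 (FDR 0.000508). Ppargc1a, a coactivator of the fasting response, fell from 24.7 ± 9.29 to 14.3 ± 2.31 CPM (-0.79, FDR 0.0139) and Foxa3 from 53.1 ± 16.7 to 33.2 ± 3.75 CPM (-0.68, FDR 0.0150). The remaining called genes of this list were the transcription factors Creb1, which fell, and Cebpb, which rose. The glucagon receptor Gcgr (-0.13, FDR 0.397) and the glucocorticoid receptor Nr3c1 (-0.098, FDR 0.535), whose hormones are known to raise urea cycle genes, did not pass. These are RNA levels of the receptors, and signalling by the hormones was not measured.

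Markers of the cells that the tissue could hold were read beside these values. Of 8 hepatocyte markers, all detected and all with a negative log2 fold change, 5 fell (Ahsg, Serpina1c, Ttr, Alb and Fgb) and the median was -0.37, and their summed level was 153192 to 178396 CPM in the control and 117357 to 131238 CPM in the BIBB-515 mice. Calls were thus 62.5% of the hepatocyte list, against 13.7% of all tested genes and 20.6% of those with an average log2 CPM of 6 or more. None of the 28 tested markers of other cells (8 of Kupffer cells, 7 endothelial, 6 of bile duct, 4 of leukocytes, 2 of fat cells and 1 of red cells) passed in edgeR or limma-voom, with 3 at an unadjusted p under 0.05 by edgeR and 1 called by DESeq2, and 2 of 7 stellate cell markers fell (Lrat and Dcn). The summed levels overlapped between the diets for each of these, for example 386 to 659 and 401 to 683 CPM for Kupffer cells. Kap, Slc12a1 and Aqp2 of kidney, Sis of small intestine and Lep of fat were at 0 in every mouse. The globin genes Hba-a1, Hba-a2, Hbb-bs and Hbb-bt of red cells were at 0 as well in the gene tables and had reads in every mouse in the tables of primary alignments, so a 0 in the gene tables does not show that a gene was absent. Apoa4 and Fabp2, listed for intestine and also made by mouse liver, both fell. The part of hepatocyte RNA make-up in the results for the members was not tested. In whole liver, fewer cells of a type, less RNA per cell and less RNA of the marker genes alone cannot be told apart.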

How the data were processed

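Each mouse has a table, deposited by the authors, of raw read counts per gene. The file headers name featureCounts 1.6.3 on an mm10 UCSC annotation, without strand and without reads on several places or genes, and the submitters' processing notes name STAR 2.5.3a and Subread 1.6.3. Tables of primary alignments (reads on overlapping genes counted for each) and of single exons, also deposited counts, served for Ass1 and the exons. Tables per transcript were not used here.

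Genes that reached 1 CPM in 2 or more of the 12 mice were TMM-normalized and tested with glmQLFTest of edgeR 4.0.16 (R 4.3.3) in a model of diet alone. The study's methods give this filter and scaling for its human tissues and no test for the mice. The 95% intervals are normal intervals around the estimate and are narrower than the edgeR test implies. That of Otc in the tables of primary alignments was -0.22 to -0.0046, with an unadjusted p of 0.0595 by edgeR. Members were also compared by two-sided exact permutation of mice between diets on log2 CPM. Scripts were tested on simulated counts.

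The members, lists and tests were chosen with earlier results of these data known. Named are all members, relatives of members (Arg2, Sdsl, Glul), per list the 4 largest changes with an FDR under 0.05 among genes whose average log2 CPM is 1 or more, and the 3 genes most like each called member. Other genes named were chosen after their values were seen. A gene that falls under this rule is not reported here, although it stays in every count. Of the 17 lists, 1 symbol was matched through an older name. Alternatives were DESeq2 1.42.0, limma-voom (limma 3.58.1), relative log expression, upper-quartile and library-total scaling, other filters, primary alignments, 1 surrogate variable (sva 3.50.0) and each mouse left out. Ass1 in the tables of primary alignments under other settings was added after seeing the data. Depth was 22764819 to 31058370 counted reads per mouse, and the common biological coefficient of variation was 0.143.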

Additional observations from a re-analysis of the deposited data

Results flagged for a closer look

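In 5 of 76 groups of 6 mice, 1 mouse lay far from the other 5, where chance gives about 3.8. No member is among them. Gpt was 464 CPM in BIBB-515 mouse 11 and at most 399 in the others, a gap of 0.637 of the group's range, and Gldc was 366 CPM in BIBB-515 mouse 6 and at most 296 in the others (0.681). Slc1a2 was 138 CPM in BIBB-515 mouse 11 and at most 129 in the others (0.662). Slc13a3 was 19.6 CPM in BIBB-515 mouse 8 and at most 15.1 in the others (0.654). Ppargc1a was 42.7 CPM in control mouse 2 and at most 25.2 in the others (0.694), and without that mouse its log2 fold change was -0.57 with an FDR of 0.033 by edgeR. Control mouse 2 was also the highest control for Cps1, Asl, Gls2, Hal and Sds.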

How the results depend on the processing

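Hal passed an FDR of 0.05 in all 9 other settings (log2 fold change 0.55 to 0.61) and without each mouse in turn (0.48 to 0.62, FDR 0.00196 to 0.0122). The count of members called was 3 with DESeq2, 3 with library totals and 2 with 1 surrogate variable, and 1 to 2 with each mouse left out. DESeq2 added Otc (-0.12, FDR 0.0286) and Asl (0.46, FDR 0.0224), library totals added Asl (0.51, FDR 0.0392) and Nags (0.24, FDR 0.0368), and the surrogate variable added Asl (0.46, FDR 0.0381). Leaving out mice gave 0.36 to 0.57 for Asl, 0.15 to 0.26 for Nags and -0.17 to 0.025 for Cps1, which turned positive without control mouse 2. The 18 genes around the cycle gave 3 calls with no filter, 8 with the surrogate variable and 2 to 6 with each mouse left out, and the transporters 4 with DESeq2, 4 with the surrogate variable and 0 to 5. Amino acid breakdown gave 2 to 6 and pericentral genes 4 to 8 calls with each mouse left out. Among the other named genes, Slc38a2 lost its call with library totals (FDR 0.0567), Slc13a3 with library totals and with limma-voom (FDR up to 0.0798) and Glul with no filter (0.0504). With each mouse left out, FDR reached 0.0906 for Slc13a3, 0.091 for Gnmt, 0.0818 for Slc38a2, 0.0718 for Car5a, 0.0708 for Lgr5, 0.0641 for Gpt, 0.0624 for Glul, 0.0607 for Cth, 0.0566 for Slc1a2 and 0.0519 for Hsd17b6. The members' share in the BIBB-515 mice was 1.13% in the tables of primary alignments. Over all genes 1489 to 2407 were called in the other settings, and with library totals 75.3% of calls were higher against 52.6%, the median of all genes moving from -0.014 to 0.04. No paired analysis was made because each mouse received only 1 diet. Replicate number 6, used in both diets, labels different mice. The 12 to 43 reads of Ass1 in the gene tables set no usable limit on its change.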
